A study of Mus musculus with 2 samples.

Results

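Acta2, Tagln, Cnn1, Tpm2, Lmod1, Myh11, Myl9, Mylk, Des and Smtn are 10 genes of the smooth muscle contractile apparatus. They were chosen by name, with earlier results of these data known, and make up 10 of the 32285 genes listed in each of the deposited count matrices. Their levels were followed across the cell classes of the mouse temporomandibular joint (TMJ) and among its mural cells, the smooth muscle cells and pericytes that wrap blood vessels.

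The TMJ tissue came from female mice labelled C57BL/6 and wild-type and was measured by droplet scRNA-Seq, which reads the 3' end of captured RNA and counts molecules by their unique molecular identifiers (UMIs). One library, PBS, came from joints injected with phosphate-buffered saline as the control, and the other, CFA, from joints injected with complete Freund's adjuvant, which provokes inflammation. The methods give 8-week-old mice, an intra-articular injection of 10 µL (CFA at 5 mg/mL), collection 3 weeks later, tissue of 3 mice pooled per group and depletion of CD45+ leukocytes from both groups, while the labels give an age of 8 to 10 weeks. The tissue held condyle, disc, temporal bone, muscle and ligament. Since each group was 1 library of pooled animals, no spread between animals could be measured, no test between PBS and CFA was possible, and the injection and the library cannot be told apart.

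The matrices held 7671 PBS and 5709 CFA barcodes with 51146169 and 53517206 UMIs, of which 20.7% and 7.90% were hemoglobin. Cells with at least 500 genes, at most 10% mitochondrial UMIs and at most 1% hemoglobin UMIs numbered 2667 in PBS and 4014 in CFA, with a median of 7022 and 6509.5 UMIs per cell. The hemoglobin limit took 3178 PBS but 339 CFA barcodes. The libraries shared 10 deposited barcodes, 2 of the kept cells and none of the mural-like cells. Clustering without the 10 genes gave 35 clusters, of which 28 could be named in 14 classes, and the 7 unnamed ones held 244 PBS and 495 CFA cells.

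Smooth muscle contracts when myosin filaments pull on actin filaments that are anchored in dense bodies and plaques. Acta2 encodes the smooth muscle alpha-actin of the thin filament, on which transgelin (Tagln), calponin 1 (Cnn1), beta-tropomyosin (Tpm2) and leiomodin 1 (Lmod1) bind. Myh11 encodes the smooth muscle myosin heavy chain, Myl9 its regulatory light chain, and Mylk the kinase that phosphorylates the light chain when calcium and calmodulin rise. Des encodes desmin, an intermediate filament protein of muscle cells of every kind, and Smtn encodes smoothelin, an actin-binding protein of contractile cells. In blood vessels the full set marks the contractile smooth muscle of arteries and arterioles, while pericytes of capillaries hold less of it. Serum response factor and its coactivator myocardin drive many of these genes through a promoter element called the CArG box.

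The genes lie apart in the genome. In GRCm38, Acta2 (ENSMUSG00000035783) spans chr19:34241090-34255590 on the minus strand, Tagln (ENSMUSG00000032085) chr9:45929619-45936058 on the minus strand, Cnn1 (ENSMUSG00000001349) chr9:22099216-22109630 on the plus strand, Tpm2 (ENSMUSG00000028464) chr4:43514711-43523765 on the minus strand and Lmod1 (ENSMUSG00000048096) chr1:135324807-135368065 on the plus strand. Myh11 (ENSMUSG00000018830) spans chr16:14194535-14291372 on the minus strand, Myl9 (ENSMUSG00000067818) chr2:156775420-156781658 on the plus strand, Mylk (ENSMUSG00000022836) chr16:34745210-35002420 on the plus strand, Des (ENSMUSG00000026208) chr1:75360329-75368579 on the plus strand and Smtn (ENSMUSG00000020439) chr11:3517523-3540612 on the minus strand. The matrices also list genes on the opposite strand of Tagln (Pcsk7 and Gm48529), Mylk (1700119H24Rik, E130310I04Rik and Gm21691), Des (Gm15179) and Smtn (Gm11946 and Gm11947).

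Promoter windows of 250 bases before to 50 bases after the start (RefSeq, GRCm38.p6) were listed for 8 of the 10 genes. A CArG box, searched on both strands, lay in 1 of them, Myl9, against 1.63% of all 32851 promoters. With 1 letter allowed to differ, Acta2, Lmod1 and Myl9 each held 2 matches, against at least 1 match in 21.1% of all promoters. These windows are shown because Acta2 and Lmod1 turned out to stand at opposite ends of the CFA to PBS ratios in mural-like cells, aside from Cnn1. Each line gives 30 bases, 5′ to 3′ on the strand of the gene, with the match in capitals.
Acta2, 84 bases before the start, chr19:34255438-34255467, minus strand: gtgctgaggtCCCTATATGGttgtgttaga
Acta2, 34 bases before the start, chr19:34255388-34255417, minus strand: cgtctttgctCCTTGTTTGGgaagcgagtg
Lmod1, 189 bases before the start, chr1:135324614-135324643, plus strand: gcccccttgtCTTTAAAAGGctaaactgct
Lmod1, 164 bases before the start, chr1:135324639-135324668, plus strand: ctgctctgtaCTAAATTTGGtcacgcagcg
Myl9, 161 bases before the start, chr2:156775293-156775322, plus strand: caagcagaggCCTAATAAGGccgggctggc
Myl9, 99 bases before the start, chr2:156775355-156775384, plus strand: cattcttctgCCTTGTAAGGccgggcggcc
The first Myl9 line is the exact match. Both Acta2 windows lie inside an exon of the longer transcript Acta2-201 of the GENCODE annotation. A match is a description of the letters and was not tested as a binding site.

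The cells in which the 10 genes were high were mural-like by markers that include none of them. Of 12 mural markers, cluster 12 (94 PBS and 150 CFA cells) held 10 as markers, Notch3, Rgs5 and Pdgfrb among them, and cluster 19 (87 and 66 cells) held all 12. Together they made 181 PBS and 216 CFA mural-like cells, with a median of 9854 and 9046.5 UMIs. Levels are given as CPM, the UMIs of a gene scaled to 1000000 UMIs of the cells named. The 12 markers summed to 6019 CPM in PBS and 6128 in CFA, led by Rgs5, a regulator of G protein signaling, at 2482 and 2453. Of 8 markers of satellite cells, the stem cells of skeletal muscle, all but Pax7 had no UMI in mural-like cells of PBS and all but Megf10 in those of CFA. Other lists moved between the libraries in these cells. Endothelial markers summed to 1590 CPM in PBS and 570 in CFA, fibroblast markers to 2504 and 1597, and neutrophil markers to 95.5 and 1272, and their part in the ratios given here was not tested.

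In mural-like cells the 10 genes took 2.83% of all UMIs in PBS and 2.67% in CFA, and the median cell held UMIs of 9 of the 10 in each library. All 10 were found together in 55 of 181 PBS and 51 of 216 CFA cells. In B cell-like cells, which should lack them, the same genes took 0.0106% and 0.00188% of UMIs.

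CPM values count captured 3' ends and are not scaled by gene length, but capture differs between genes, so the order of genes is that of captured molecules. All intervals are exact 95% intervals for counting error only: Poisson for levels, Clopper-Pearson for shares of cells, and conditional on the summed count for ratios.

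Among the thin filament genes, Acta2 stood highest, at 10398 CPM (10257 to 10541) in PBS and 9095 (8970 to 9223) in CFA mural-like cells. It supplied 36.8% and 34.1% of the UMIs of the 10 genes there. Tagln followed at 5823 and 5284 and Tpm2 at 3007 and 2906. Cnn1 and Lmod1 were far scarcer. Cnn1, which binds actin and calmodulin, stood at 438 (409 to 468) in PBS and 272 (251 to 295) in CFA. Lmod1, which starts new actin filaments, stood at 409 (381 to 438) in PBS and 566 (535 to 599) in CFA.

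Of the myosin genes, Myh11 reached 3363 CPM in PBS and 3614 in CFA, Myl9 2774 and 2866, and Mylk 1562 and 1658. Des, at 261 and 244, and Smtn, at 223 and 208, closed the order. The intervals of Des and Smtn overlapped in each library, as did those of Cnn1 and Lmod1 in PBS and those of Tpm2 and Myl9 and of Cnn1 and Des in CFA. These separate intervals thus do not settle the order within these pairs. Every other pair of neighbours in the order was separated by more than counting error.

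The share of mural-like cells with a UMI followed another order. Mylk UMIs occurred in 96.1% of the mural-like cells of PBS and 93.5% of those of CFA, Myh11 in 92.8% and 97.2%, and Acta2, with far more UMIs, in 87.8% and 88.9%. Cnn1 reached 40.3% and 44.9%. The Cnn1 UMIs thus lay in fewer than 1 in 2 cells. After each cell was thinned to 1000 UMIs, Acta2 remained in 76.2% and 80.1% of cells and Myh11 in 75.7% and 83.3%, Cnn1 in 19.9% and 14.4%. In B cell-like cells, with a median of 3734 and 4024.5 UMIs, the shares with an Acta2 UMI were 7.18% in PBS and 2% in CFA before thinning and 2.5% and 0% after it.

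Across classes, a gene was counted as enriched when its level in mural-like cells was at least 5 times that in the next highest class with at least 20 cells, in each library. This held for 7 of the 10 genes, against 0.823% of all 10449 genes compared. Lymphatic-like cells, 19 in PBS and 12 in CFA, were under the limit of 20 cells, so the folds leave them out. Acta2 was 12.8-fold over satellite cell-like cells in PBS and 27.8-fold in CFA. Myh11 was 19.1-fold over neutrophil-like cells in PBS, whose level fell from 176 to 17.8 CPM without the 5 of 71 cells with 3 or more UMIs of the mural list, and 59.4-fold over osteoblast- and osteocyte-like cells in CFA. Tagln stood 12.1-fold and 22.4-fold over its next class, Cnn1 12.2-fold and 38.0-fold, Tpm2 12.5-fold and 21.9-fold, Lmod1 17.1-fold and 31.7-fold, and Myl9 15.0-fold and 39.8-fold. For Tagln, Cnn1 and Lmod1 the next class in PBS was also neutrophil-like. Without the same 5 cells its level went from 483 to 12.9 CPM for Tagln, 35.9 to 12.9 for Cnn1 and 24.0 to 0 for Lmod1. The 3 genes that missed the criterion were Mylk, Des and Smtn, whose next class, or a class above them, lay nearer than 5-fold. By shares of cells thinned to 1000 UMIs in place of levels, 3 genes met the criterion (Cnn1, Lmod1 and Myh11).

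**Figure D1:**
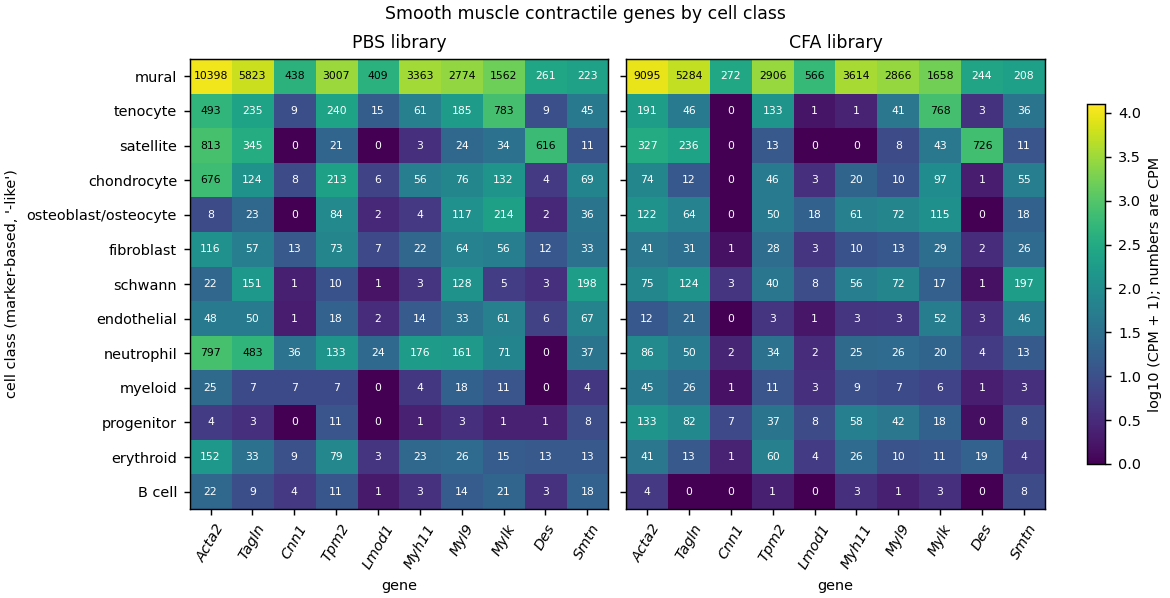
Heat map of the level of each of the 10 genes (columns) in the 13 cell classes with at least 20 cells in each library (vertical axis), for PBS and CFA, coloured by log10 of CPM + 1 and with the CPM printed in each field. Mural-like cells, at the top, stand at least 5-fold above every other class shown for 7 genes. Mylk is next highest in tenocyte-like cells, Des is higher in satellite cell-like cells and Smtn is close in Schwann-like cells. Lymphatic-like cells, with fewer than 20 cells in each library, are not shown.

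Mural-like cells held 90.6% of the Myh11 UMIs of all kept PBS cells and 92.7% of those of CFA, and 80.6% and 89.2% of the Acta2 UMIs. For Cnn1 the share was 82.1% and 93.7%. Smtn lay mostly elsewhere, with 26.2% and 28.2% of its UMIs in mural-like cells, and Des was split, with 52.7% and 49.6%.

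Mylk was high in tenocyte-like cells, the fibroblasts of tendon and ligament. It stood at 783 CPM in PBS and 768 in CFA, in 79.0% and 85.7% of cells, so that mural-like cells were 1.996-fold and 2.16-fold higher. B cell-like cells held Mylk in 4.78% and 1.33% of cells. Without the tenocyte-like cells that carried 3 or more UMIs of the mural list, Mylk stood at 728 and 779 there.

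Des was higher in satellite cell-like than in mural-like cells, at 616 CPM in PBS and 726 in CFA, in 89.3% and 90.9% of cells. Without cells with 3 or more mural UMIs these levels were 598 and 695. The same cells held Acta2 at 813 and 327 and Tagln at 345 and 236. Cnn1 and Lmod1 had no UMI in them in either library, and Myh11 had 1 UMI in PBS and 0 in CFA. For these 3 genes 3 counts, the floor used here, correspond to 7.89 CPM in PBS and 4.81 in CFA satellite cell-like cells, so higher levels of them were not found in cells that held Acta2, Tagln and Des.

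Smtn was also high in Schwann-like cells, the glia of peripheral nerve. It stood at 198 and 197 CPM, in 52.3% and 52.7% of cells with a median of only 3832 and 3431.5 UMIs, against 6.22% and 4.00% of B cell-like cells. The ratio of mural-like to Schwann-like cells was 1.12 (0.968 to 1.30) in PBS and 1.05 (0.916 to 1.21) in CFA, intervals that include 1. Tagln, at 151 and 124, and Myl9, at 128 and 72.0, were also found in Schwann-like cells.

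Among mural-like cells, reclustering without the 10 genes gave 4 subclusters. The first was smooth muscle-like, with 74 PBS and 139 CFA cells, led by Pln, the regulator of the calcium pump of the sarcoplasmic reticulum, and holding 7 of 10 smooth muscle list markers. A pericyte-like subcluster of 44 and 40 cells was marked by Kcnj8, Abcc9, Higd1b and Vtn. A subcluster of 43 and 26 cells, led by Mfap5, Fst, Pcdh7 and Actg2, stayed unnamed. The last, of 20 and 11 cells, was led by endothelial genes, and every one of its cells held 3 or more UMIs of the endothelial list, with a median of 17610 and 14622 UMIs per cell.

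The make-up of the mural-like cells differed between the libraries. Smooth muscle-like cells made up 40.9% of them in PBS and 64.4% in CFA, pericyte-like cells 24.3% and 18.5%, and the Mfap5 and Actg2 subcluster 23.8% and 12.04%. These are shares of sequenced cells from 1 library each. Fibroblast markers summed to 6819 and 4375 CPM in the Mfap5 and Actg2 subcluster, against 643 and 1035 in smooth muscle-like cells. Notch3, the receptor that marks mural cells of all kinds, stood at 798 and 920 CPM in smooth muscle-like cells, 594 and 1234 in pericyte-like cells and 507 and 579 in the Mfap5 and Actg2 subcluster. Other mural markers were spread differently. In the Mfap5 and Actg2 subcluster Cspg4 stood at 7.56 and 0 CPM, Cox4i2 at 88.8 and 100, and Pdgfrb at 370 and 307. Smooth muscle-like cells held Cspg4 at 249 and 203, Cox4i2 at 326 and 283, and Pdgfrb at 295 and 300.

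The contractile genes were graded among these cells. Smooth muscle-like cells held Acta2 at 16225 CPM in PBS and 11307 in CFA, the Mfap5 and Actg2 subcluster at 13783 and 8310, and pericyte-like cells at 585 and 1400. Myh11 stood at 5535 and 4613, 3700 and 2500, and 319 and 662 in the same subclusters. For 8 of the 10 genes the same subclusters were highest and lowest in each library and lay at least 2-fold apart, against 17.7% of 8458 genes compared. Pericyte-like cells were the lowest for all 10 among the 3 subclusters with at least 20 cells in each library, to which this comparison was limited. Tagln missed the criterion only in which subcluster was highest, at 8496 and 6380 in smooth muscle-like cells against 8582 and 6031 in the Mfap5 and Actg2 subcluster. The PBS difference lay within counting error, with a ratio of 1.01 (0.972 to 1.05). With either subcluster allowed to be highest, a criterion chosen after seeing the data, 9 genes were graded, against 23.1% of all genes.

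**Figure D2:**
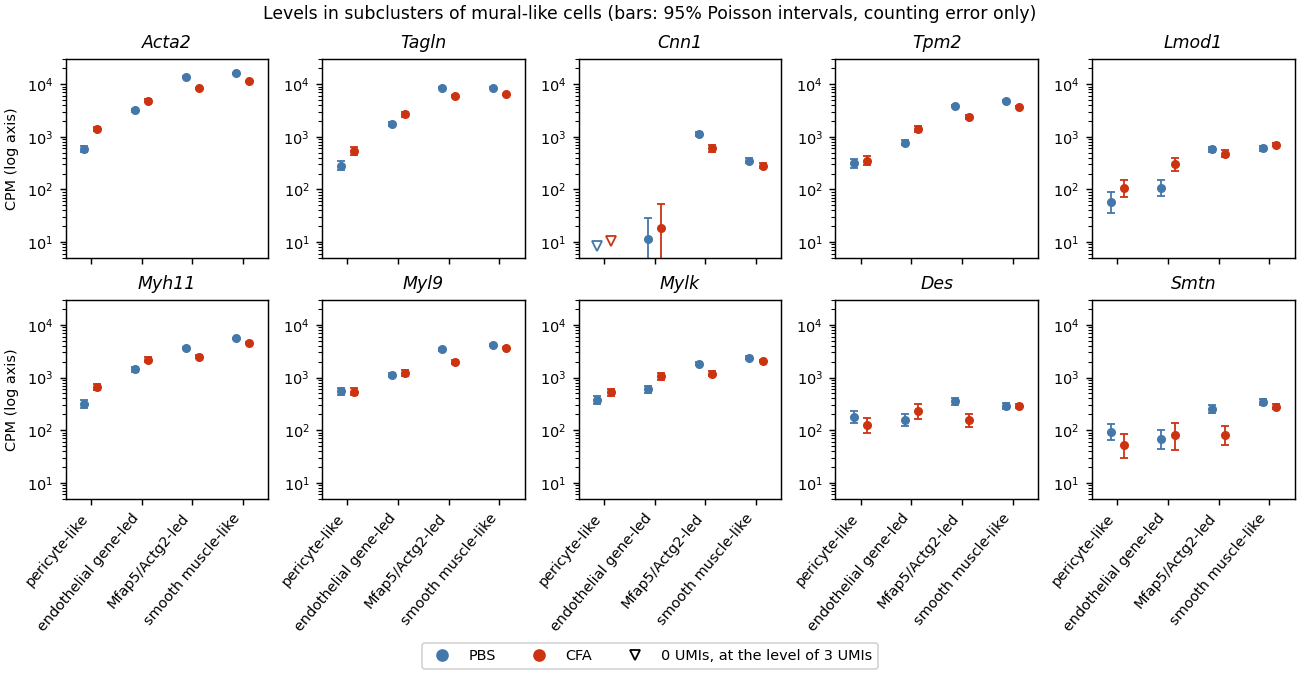
Level of each of the 10 genes in the 4 subclusters of mural-like cells (CPM, log axis) in PBS (blue) and CFA (red), with exact Poisson intervals and open triangles at the level of 3 UMIs where no UMI was found. Among the 3 subclusters with at least 20 cells in each library, pericyte-like cells are lowest for every gene, and Cnn1 is highest in the Mfap5 and Actg2 subcluster.

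The size of the step differed between genes. From pericyte-like to the highest subcluster, Acta2 was 27.7-fold higher in PBS and 8.07-fold higher in CFA, Tagln 30.3-fold and 11.9-fold, Tpm2 15.2-fold and 10.5-fold, Myh11 17.4-fold and 6.97-fold, and Lmod1 10.5-fold and 6.59-fold. Myl9, at 7.66-fold and 6.92-fold, and Mylk, at 6.34-fold and 3.96-fold, had smaller steps. Smtn had a step of 3.65-fold in PBS and 5.40-fold in CFA. Des was the flattest, at 1.98-fold and 2.31-fold, just under and over the 2-fold limit.

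Cnn1 had a pattern of its own among the 10. No pericyte-like cell, of 44 in PBS and 40 in CFA, held a UMI of it, with an upper limit of 10.1 and 12.8 CPM. The Mfap5 and Actg2 subcluster held it at 1142 in PBS and 608 in CFA, which is 138-fold and 58.5-fold higher against a floor of 3 counts in pericyte-like cells, and at least 112-fold and 47.1-fold higher by the lower limits of the intervals. It was also 3.22-fold (2.79 to 3.74) and 2.15-fold (1.80 to 2.56) higher there than in smooth muscle-like cells, at 354 and 283. No other gene of the 10 was higher there than in smooth muscle-like cells in both libraries.

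The grading depended on whether the pericyte-like cells were separated from the Mfap5 and Actg2 cells. Under 6 alternative filters or clusterings they fell into 1 subcluster, and 0 to 3 of the 10 genes then met the criterion, Acta2 in 1 of the 6 and Myh11 in 5. The mural-like cells were also ranked by an index that uses no clusters, the share of smooth muscle list UMIs among smooth muscle and pericyte list UMIs. They were divided over both libraries into 5 bins of nearly equal size. The smooth muscle list holds other genes of contraction, Pln, Casq2 and Synpo2 among them, so a rise along the index is partly built in. Pericyte-like cells made up 86.4% of the first bin in PBS and 91.4% in CFA, so the bins largely repeat the contrast of the subclusters. Along the bins Acta2 stood at 843, 6026, 11777, 16901 and 18916 CPM in PBS and at 1272, 5206, 10137, 10273 and 14364 in CFA. Every step of Acta2 was upward in each library, although that from 10137 to 10273 lay within counting error. For 8 of the 10 genes the same bins were highest and lowest in each library and at least 2-fold apart, against 6.71% of all genes.

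Lmod1 went from 49.4 in the first to 790 CPM in the last bin in PBS and from 144 to 833 in CFA, and Smtn from 83.3 to 449 and from 58.5 to 420. Des did not follow the index. In PBS it stood at 143, 202, 291, 407 and 317, and in CFA at 133, 189, 397, 231 and 199. The PBS intervals of Des in the fourth and last bins overlap (338 to 485 and 266 to 376). Cnn1 was highest in the fourth bin in PBS, at 908 (804 to 1022) against 842 (757 to 935) in the last, intervals that overlap. In CFA it was highest in the last bin, at 480. Between 14 and 121 cells lay within 5 percentage points of each of the 4 bin edges, so the bins are ranges and not cell types.

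**Figure D3:**
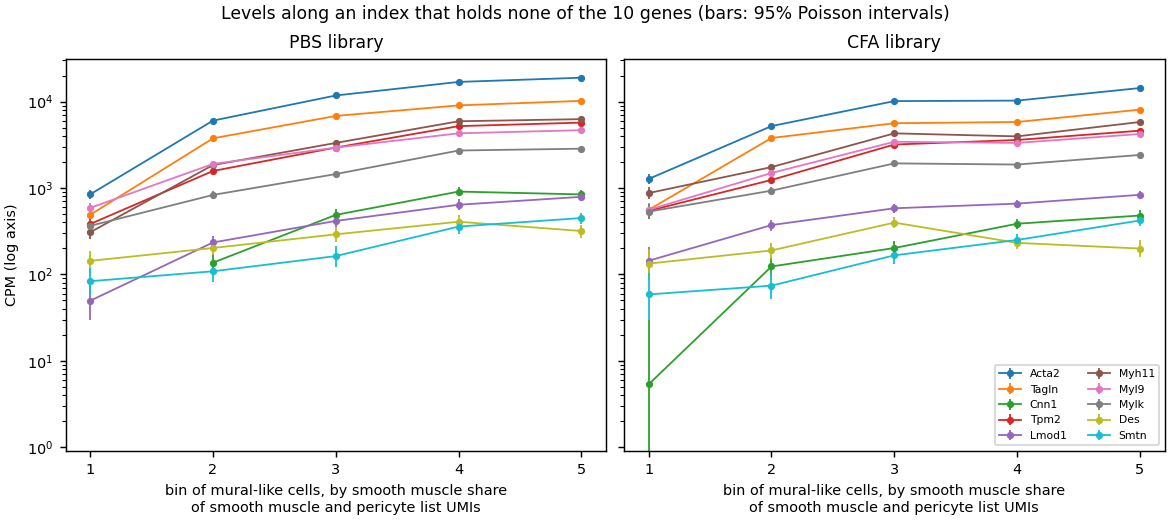
Levels of the 10 genes (CPM, log axis) in 5 bins of mural-like cells ordered from pericyte list to smooth muscle list UMIs, with exact Poisson intervals, for PBS and CFA. The value of Cnn1 in the first PBS bin, 0, is not drawn. Acta2 climbs at every step in both libraries, whereas Des peaks before the last bin.

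Single cells within a subcluster were spread widely. In smooth muscle-like cells of PBS, Acta2 per cell ran from 0 to 40410 CPM with a median of 13600.5, and in CFA from 0 to 36511 with a median of 9856. Cells without an Acta2 UMI numbered 4 of 74 in PBS and 2 of 139 in CFA. Cnn1, in contrast, was at 0 in 28 and 59 of these cells, with a median of 167 and 117. Myh11 was at 0 in 0 and 1 of them, with a median of 4881 and 4112. The Mfap5 and Actg2 subcluster had wide Acta2 quartiles, 3628 to 17995 in PBS and 1521 to 10045 in CFA, so that cells low and high in Acta2 lay side by side in it.

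**Figure D4:**
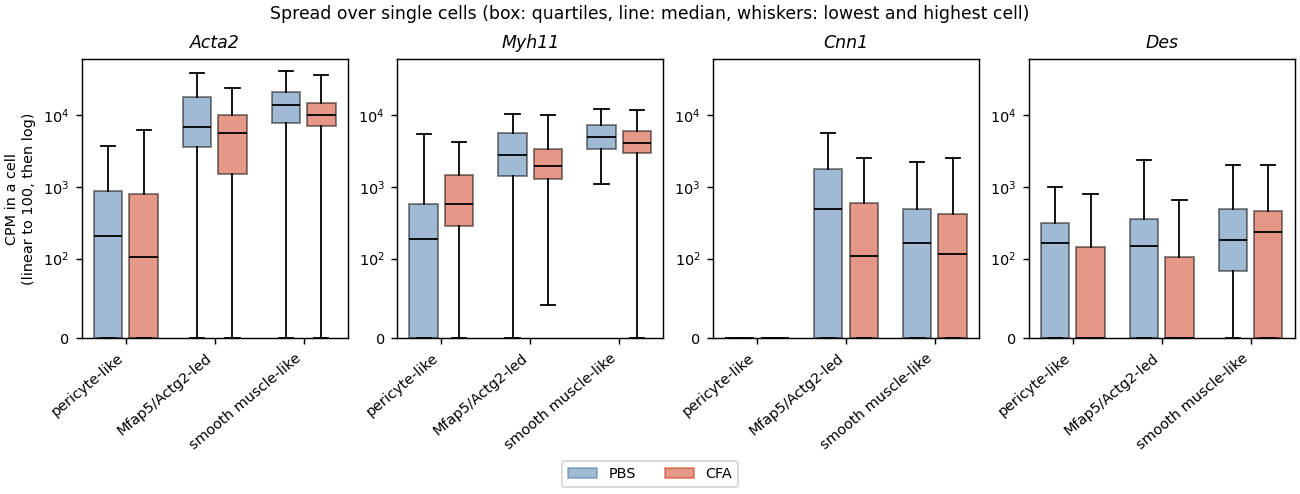
Acta2, Myh11, Cnn1 and Des in single mural-like cells (CPM, linear to 100 and log above) by subcluster for PBS (blue) and CFA (red). Boxes span the quartiles with a line at the median, and whiskers reach the lowest and highest cell. Acta2 and Myh11 are found in nearly all smooth muscle-like cells, while Cnn1 is at 0 in 28 of 74 PBS and 59 of 139 CFA smooth muscle-like cells and in every pericyte-like cell.

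Across the 397 mural-like cells, Pearson correlations between pairs of the 10 genes had a median of 0.598, from 0.0553 for Cnn1 and Des to 0.928 for Acta2 and Tagln. Within smooth muscle-like cells the median was 0.448, in the Mfap5 and Actg2 subcluster 0.490, and in pericyte-like cells 0.111. The cells share 2 libraries and their depth enters each value, so these are descriptions of log-scaled UMI fractions.

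Compared between the libraries in mural-like cells as a whole, the contractile genes mostly differed by less than 1.5-fold. A gene was counted as changed when the CFA to PBS ratio of its level was at least 1.5 or at most 1/1.5. This held for 1 of the 10 genes, against 19.8% of all 10449 genes compared. That gene was Cnn1, which fell from 438 to 272 CPM, a ratio of 0.621 (0.559 to 0.690), where 11.4% of all genes were lower and 8.40% higher. The median ratio of the 10 genes was 0.949, against 0.989 for all genes.

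Acta2 had a ratio of 0.875 (0.858 to 0.892) and Tagln of 0.908 (0.884 to 0.931). Lmod1, at 1.39 (1.27 to 1.52), had the highest ratio of the 10, just short of the limit. Tpm2 (0.966), Myh11 (1.07), Myl9 (1.03), Mylk (1.06), Des (0.932) and Smtn (0.932) lay within 8% of equal levels. The intervals of Tpm2, Myl9, Des and Smtn include 1.

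The ratios differed between subclusters. Smooth muscle-like cells had a median ratio of 0.829 over the 10 genes, against 1.01 for all genes, and 8 of the 10 ratios were below 1. None passed the 1.5-fold limit there, against 20.4% of all genes. Acta2 was nearest to it, at 0.697 (0.681 to 0.714), followed by Tagln at 0.751, Tpm2 at 0.776 and Cnn1 at 0.799. Lmod1 was again above 1, at 1.17 (1.05 to 1.32), and Des stood at 1.01.

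The Mfap5 and Actg2 subcluster had the lowest ratios. All 10 were below 1, with a median of 0.612 against 1.08 for all genes, and 7 of the 10 were lower in CFA by the 1.5-fold limit, against 9.59% of all genes. Smtn fell from 249 to 80.8 CPM, a ratio of 0.324 (0.202 to 0.4996), Des from 353 to 155 (0.439), Cnn1 from 1142 to 608 (0.533), and Acta2 from 13783 to 8310 (0.603, 0.576 to 0.631). Myl9 (0.573), Tpm2 (0.620) and Mylk (0.640) were the others that fell. Myh11 (0.675), Tagln (0.703) and Lmod1 (0.828) did not reach the limit. These values rest on 43 PBS and 26 CFA cells. Of the Acta2 UMIs, 5 cells held 37.2% in PBS and 54.0% in CFA, and the median cell went from 6801 to 5583 CPM. In the same cells the smooth muscle list stood at 3103 CPM in PBS and 2496 in CFA and the pericyte list at 909 and 1116, and their part in the ratios was not tested.

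In pericyte-like cells 4 of the 9 genes with enough UMIs were higher in CFA, against 17.7% of all genes, and 1, Smtn, was lower, against 11.5%. Acta2 rose from 585 to 1400 CPM, a ratio of 2.39 (2.02 to 2.84), but 5 of the 40 CFA cells held 354 of the 404 UMIs and 5 of the 44 PBS cells 117 of the 213. The median pericyte-like cell held 209 Acta2 CPM in PBS and 105 in CFA, opposite to the summed levels. Myh11 rose from 319 to 662 (2.08, 1.64 to 2.64), and its median cell from 186 to 571. Tagln, from 283 to 537, and Lmod1, from 57.7 to 107, were the others. For Tagln, 5 CFA cells held 121 of 155 UMIs, the share of cells with a UMI was 47.7% in PBS and 37.5% in CFA, and the median cell was at 0 in each library. Smtn fell from 93.4 to 52.0, with an interval of its ratio of 0.282 to 1.05. Endothelial list UMIs of 3 or more were found in 27.3% of PBS and 12.5% of CFA pericyte-like cells, and their part in these ratios was not tested.

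The subcluster led by endothelial genes, with only 20 and 11 cells, had 6 of 9 genes higher in CFA, against 23.5% of all genes. Acta2 stood at 3177 in PBS and 4824 in CFA and Lmod1 at 108 and 302.

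**Figure D5:**
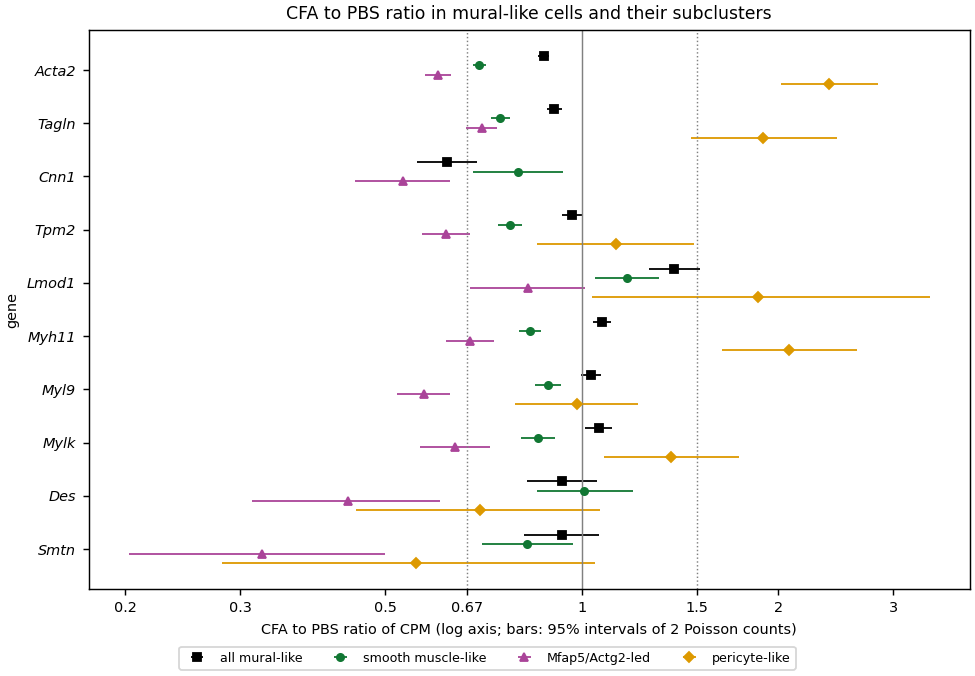
CFA to PBS ratio of the level of each of the 10 genes (log axis) in all mural-like cells and in 3 of their subclusters, with exact intervals for counting error as bars and the 1.5-fold limits as dotted lines. Ratios of all 10 genes lie below 1 in the Mfap5 and Actg2 subcluster, while Lmod1 lies above 1 in mural-like cells as a whole and in smooth muscle-like cells.

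The change in make-up entered the ratios of the whole class. When the CFA levels were weighted by the PBS share of UMIs in each subcluster, a calculation chosen after seeing the data, the ratio of Acta2 was 0.726 in place of 0.875, that of Myh11 0.862 in place of 1.07, and that of Mylk 0.875 in place of 1.06. Lmod1 was then the only one of the 10 above 1, at 1.14. Cnn1 hardly moved, at 0.618.

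Outside the mural-like class, many levels were lower in CFA. Of those of the 10 genes that had 10 or more UMIs in each library, 8 of 9 were lower by the 1.5-fold limit in fibroblast-like cells (10.5% of all genes), 6 of 8 in endothelial-like cells (12.3%), 4 of 6 in tenocyte-like cells (8.81%), 5 of 7 in chondrocyte-like cells (15.3%), 7 of 7 in neutrophil-like cells (27.7%), 4 of 5 in osteoblast- and osteocyte-like cells (16.5%) and 1 of 5 in Schwann-like cells (8.16%). B cell-like cells held Acta2 at 22.0 CPM in PBS and 3.77 in CFA, a level that moved the same way, and its part in these counts was not tested. Some of these differences were not seen without cells that held 3 or more UMIs of the mural list. Such cells were 281 of 497 PBS and 206 of 371 CFA fibroblast-like cells. They were also 58 of 59 PBS and 81 of 86 CFA chondrocyte-like cells, so the limit takes most cells of a class that is not mural. The source of these UMIs was not tested. Without the cells past the limit, fibroblast-like Acta2 stood at 19.4 CPM in PBS and 19.5 in CFA, in place of 116 and 41.3, and fibroblast-like Myh11 at 2.62 and 11.0. Endothelial-like Tagln then stood at 14.3 and 14.2 and tenocyte-like Acta2 at 243 and 235, while tenocyte-like Tagln was still lower in CFA, at 143 and 34.8. Other genes were higher in CFA, namely Tagln in osteoblast- and osteocyte-like cells, with a ratio of 2.81, and Acta2 (3.49) and Tpm2 (4.03) in Schwann-like cells, where 5 CFA cells held 67 of 72 Tpm2 UMIs. Without cells with 3 or more mural UMIs, Schwann-like Acta2 stood at 23.8 CPM in PBS and 16.6 in CFA, the other direction. Erythroid-like Acta2 went from 152 to 41.5 CPM. Tenocyte-like Mylk, with a ratio of 0.981 (0.908 to 1.06), and Schwann-like Smtn, with 0.992 (0.849 to 1.16), had intervals that include 1. Satellite cell-like Acta2 went from 813 to 327 CPM, a ratio of 0.402, and from 924 to 227 without cells with 3 or more mural UMIs, while Des there went from 616 to 726 (1.18).

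A few cells held much of the signal in some of these classes. PBS neutrophil-like cells had Acta2 at 797 CPM, which became 100 without the 5 of 71 cells that held 3 or more UMIs of the mural list. In PBS tenocyte-like cells, 5 of 157 cells held 622 of 1038 Acta2 UMIs and all 128 Myh11 UMIs. Schwann-like cells of CFA had 122 of 137 Acta2 UMIs in 5 of 376 cells. No cluster of at least 20 cells outside the mural-like class reached 1 in 10 of the summed level of the 10 genes in mural-like cells. The nearest was a neutrophil-like cluster of PBS, at 8.26%. Lymphatic-like cells, 19 in PBS and 12 in CFA, were under that limit and were not compared. They held 909 UMIs of the 10 genes in PBS and 36 in CFA. In PBS they were 0.712% of cells but held 1.26% of the Acta2 and 1.44% of the Tagln UMIs.

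The genes most like the 10 were found over 26 pairs of class and library with at least 20 cells, among 1684 genes with at least 100 CPM in mural-like cells of each library. The highest Pearson correlations with the mean of the 10 were those of Jph2 (0.935), which encodes a junctophilin that ties plasma membrane to calcium store, Rbpms2 (0.935), an RNA-binding protein gene, Myocd (0.930), which encodes myocardin, Gm13889 (0.920) and Olfr558 (0.918). Over the 397 mural-like cells they were Dstn (0.869), an actin-depolymerizing factor, Myl6 (0.851), the essential myosin light chain, Flna (0.851), which crosslinks actin, Mustn1 (0.843) and Tpm1 (0.841), alpha-tropomyosin. The points share the same 2 libraries and differ in depth. Jph2 stood at 194 CPM in PBS and 210 in CFA mural-like cells, and Dstn at 1329 and 1276.

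Other genes of contraction were read against the same limits in mural-like cells, where 0.823% of all genes were enriched, 8.4% higher in CFA and 11.4% lower. Among other filament genes, 11 of 14 were compared, of which 1 was enriched, 1 lower in CFA and none higher. That gene was Actg2, the enteric smooth muscle gamma-actin, which fell from 432 to 177 CPM, a ratio of 0.410 (0.363 to 0.463). It lay almost wholly in the subcluster it helped to define, at 1544 and 1035, and stood at 43.1 and 35.0 in smooth muscle-like cells. Myl6 was the highest of the list, at 4365 and 4092.

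Of 13 dense plaque genes, which anchor actin at the membrane, 3 were enriched (Synpo2, Pdlim3 and Ldb3), 2 higher and none lower. Itga8, the integrin alpha 8 subunit, rose from 174 to 329 CPM (1.89, 1.66 to 2.15) and Synm, which encodes the intermediate filament protein synemin, from 120 to 198 (1.65). In smooth muscle-like cells alone, which Itga8 helped to name, Itga8 stood at 312 and 461, but Synm at 265 and 286. In the Mfap5 and Actg2 subcluster both were lower in CFA, at 176 and 90.5 for Itga8 and 43.5 and 16.2 for Synm. Flna was the highest, at 1271 and 1075. In the light chain phosphorylation list, 10 of 12 genes were compared and 1 was higher, Ppp1r12b, a myosin phosphatase subunit, from 348 to 523 (1.504, 1.37 to 1.66). Prkg1, the cGMP-dependent kinase that opposes contraction, was the highest of that list, at 3115 and 4127.

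Of 10 calcium and potassium handling genes, 3 were enriched (Pln, Casq2 and Cacnb2), 3 higher in CFA and none lower. Cacnb2, a calcium channel beta subunit, rose from 725 to 1336 CPM (1.84, 1.73 to 1.96), and stood at 1292 and 1765 in smooth muscle-like cells. Pln rose from 193 to 321 (1.66), but within smooth muscle-like cells, which Pln helped to name, it stood at 497 in PBS and 469 in CFA. The L-type calcium channel gene Cacna1c was the highest, at 1520 and 1474.

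Receptors of vasoactive agents had 10 of 11 genes compared, 2 higher and 1 lower. The enriched ones, Gucy1a1 and Gucy1b1, are mural markers that named the class, so their enrichment is no result. Ednra, the endothelin receptor that raises calcium, rose from 164 to 309 CPM (1.89, 1.65 to 2.16), and stood higher in CFA in smooth muscle-like cells (163 and 281), in pericyte-like cells (239 and 499) and in the Mfap5 and Actg2 subcluster (163 and 330). Gucy1a1, a subunit of the nitric oxide receptor, was the highest, at 479 and 661. The transcriptional control list had 12 genes compared, 1 enriched, 2 higher and 2 lower. Myocd rose from 177 to 369 CPM (2.08, 1.84 to 2.37), from 217 to 395 in smooth muscle-like cells and from 318 to 605 in the Mfap5 and Actg2 subcluster, where all 10 contractile genes had ratios below 1. Hey2, a Notch target, went from 29.2 to 43.9 (1.505, 1.08 to 2.12), but stood at 61.9 and 58.8 in smooth muscle-like cells and at 13.2 and 6.47 in the Mfap5 and Actg2 subcluster. Mef2c was the highest of the list, at 597 and 692. Median ratios of the lists ran from 0.962 for other filament genes to 1.32 for calcium and potassium handling genes, against 0.989 for all genes.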

How the data were processed

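The authors deposited 1 filtered matrix of raw UMI counts per library. The submitters' processing notes name Cell Ranger 7.0.1 and the mm10 build. The labels name a 10x 3' v2 kit and the methods a later version, and the kit was not settled here.

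Cells were filtered as above, normalized with SCTransform, integrated on 3000 genes and clustered (Seurat 5.3.0 in R 4.3.3, 200 principal components, resolution 1.5) without the 10 genes. Clusters were named from marker lists with at least 3 markers, unless they had few UMIs or were led by markers of another class. Clusters 11 and 22, of 263 and 143 cells, held 7 and 5 endothelial markers but stayed unnamed for few UMIs. Mural-like cells were reclustered with 30 components at resolution 0.3. Counts were then summed per library and class (Python 3.11.15, numpy 2.4.6, scipy 1.17.1, pandas 2.3.3). With 1 library per group no test was run, and calls are folds: 5 for enriched, 1.5 for changed, 2 for graded, over genes that had 10 or more UMIs in each library. Scrublet (scanpy 1.11.5) marked 21 PBS and 2 CFA cells, too few to rely on, so no doublet was removed. In each library the top 5% by doublet score, which held 9 PBS and 24 CFA mural-like cells, were left out as an alternative.

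The 10 genes and all lists were chosen with earlier results of these data known. Named genes are the 10, the 5 most correlated over classes and over cells, and from each list the highest gene and up to 3 past 1.5-fold with at least 50 UMIs in each library. Markers, leading genes of subclusters and list genes counted as enriched were named outside this rule, after their values were seen. Gene positions and promoters came from GENCODE on GRCm38 and RefSeq on GRCm38.p6.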

Additional observations from a re-analysis of the deposited data

Results flagged for a closer look

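The summed level of Acta2 had opposite directions between the libraries in different mural-like subclusters. Its CFA to PBS ratio was 0.603 in the Mfap5 and Actg2 subcluster and 2.39 in pericyte-like cells, where 5 of 40 CFA cells held 354 of 404 UMIs. The median pericyte-like cell went from 209 to 105 CPM and the share of cells with an Acta2 UMI from 61.4% to 52.5%. These cells had a median of 5838.5 UMIs in PBS and 3990 in CFA, so depth enters both values. After thinning to equal depth, as in the Results, the share was 29.5% (16.8 to 45.2) in PBS and 25% (12.7 to 41.2) in CFA. These intervals overlap, so the median and the share do not settle a direction. The difference between these ratios was not tested, since each rests on 1 library per condition.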

How the results depend on the processing

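The count of enriched genes was 7, and 6 to 8 under 13 of 15 other settings (other hemoglobin, gene and mitochondrial limits, resolution 0.8, 50 components, log-normalized merging, the 10 genes kept in clustering, cells classed one by one, the highest doublet scores removed, cells with 3 or more endothelial UMIs removed, no minimum of UMIs and means over cells). It was 3 by shares of cells thinned to 1000 UMIs, 2 at 2000 UMIs and 3 by unthinned shares, a measure added after seeing the data. The count of changed genes was 1 under all 14 other settings, Cnn1 in 12 and Lmod1 in 2. In comparisons chosen after seeing the data it was 0 in smooth muscle-like cells alone, 7 in the Mfap5 and Actg2 subcluster and 5 in pericyte-like cells. The Acta2 ratio ran from 0.694 to 0.983 and that of Lmod1 from 1.09 to 1.56 over these 14. The count of graded genes was 8, and 0 without a hemoglobin limit, 1 with a hemoglobin limit of 0.2%, with at least 1000 genes, with a mitochondrial limit of 20% and with 50 components, and 3 at resolution 0.8. In each of these, 67 to 84 of the 84 pericyte-like cells shared a subcluster with the Mfap5 and Actg2 cells. It was 7 to 9 under the remaining 9 of 15 settings. In mural-like cells as a whole, Cnn1 was below 1 and Lmod1 above 1 under all 14. No paired analysis was possible because each group was 1 library, and for the same reason no replicate could be left out. Levels under the floor of 3 counts were not resolved at this depth.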
